A study of Mus musculus with 6 samples.

Results

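The 5 genes described here are Slc9a9, Slc9a7, Slc9a8 and Slc9a5, which encode sodium-proton exchangers of the SLC9 family, and Slc9a3r1, which encodes a scaffold protein that binds exchangers. They were taken by name from the deposited table of 29957 genes, where each stood on 1 row, and Slc9a9 drew attention because of its low level after treatment, so the difference between the groups in these genes is given as a description and not as a test. The RNA was that of bone marrow-derived macrophages (BMDMs) of mice, cells that differentiate from marrow progenitors in a dish. Of the 6 libraries, 3 came from cells given LPS+PA-BSA, which is lipopolysaccharide, the bacterial ligand of the receptor TLR4, followed by a free fatty acid bound to albumin, and 3 from control cells. All 6 are labelled wild type (WT). The labels give no dose, time, sex or age, do not say whether control cells received LPS or the albumin carrier, and do not name the animal or culture behind a replicate, so p-values measure only the spread between these libraries, which may be technical. The study asked how a free fatty acid acts as the second signal for the Nlrp3 inflammasome after LPS. The effects of LPS and of the fatty acid were measured together.

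SLC9 exchangers move a sodium or potassium ion one way across a membrane and a proton the other way. Inside the cell, Slc9a9 acts in endosomes and Slc9a7 and Slc9a8 in the Golgi, where they let protons out of the lumen against the proton pump (the vacuolar ATPase) and so limit its acidity. Slc9a5 is best known from the brain, at the plasma membrane and in recycling endosomes. Slc9a3r1 (also called NHERF1 or EBP50) is not an exchanger: it carries PDZ domains that bind membrane transporters and a tail that binds ezrin, which ties them to the actin cortex. The label of plasma membrane and endosomal exchangers therefore holds for only part of the group, as 1 of the 5 genes encodes a scaffold and 2 encode Golgi exchangers.

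In mm10, Slc9a9 (ENSMUSG00000031129) is a protein-coding gene on chromosome 9 at 94669909 to 95230445, with a longest transcript of 3468 bases. Slc9a7 (ENSMUSG00000037341) lies on chromosome X at 20105754 to 20291807, Slc9a8 (ENSMUSG00000039463) on chromosome 2 at 167421712 to 167477000, Slc9a5 (ENSMUSG00000014786) on chromosome 8 at 105348843 to 105369881 and Slc9a3r1 (ENSMUSG00000020733) on chromosome 11 at 115163341 to 115181181. Each value in the table is for a gene and not for a single transcript, and the length it was scaled to is not known. The promoters of the 3 exchangers of endosomes and Golgi are shown because Slc9a9 and Slc9a7 were both lower after LPS+PA-BSA and Slc9a8 was not apart from control. Each runs from 250 bases before to 50 bases after the RefSeq start (GRCm38.p6), 5′ to 3′ along the gene, with CpG dinucleotides in capitals.
Slc9a9, chr9:94669642-94669941, plus strand: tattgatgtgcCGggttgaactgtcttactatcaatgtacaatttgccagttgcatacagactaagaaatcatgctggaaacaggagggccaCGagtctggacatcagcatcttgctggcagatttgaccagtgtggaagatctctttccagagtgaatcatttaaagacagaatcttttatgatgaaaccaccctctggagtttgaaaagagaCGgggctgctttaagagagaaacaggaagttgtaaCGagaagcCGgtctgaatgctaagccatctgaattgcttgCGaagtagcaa
Slc9a7, chrX:20291778-20292077, minus strand: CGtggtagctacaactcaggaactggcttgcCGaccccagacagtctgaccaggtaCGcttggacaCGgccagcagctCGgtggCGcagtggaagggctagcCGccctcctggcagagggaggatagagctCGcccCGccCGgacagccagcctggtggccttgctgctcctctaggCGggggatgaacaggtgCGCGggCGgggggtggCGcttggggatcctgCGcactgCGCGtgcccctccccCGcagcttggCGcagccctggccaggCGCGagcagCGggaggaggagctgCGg
Slc9a8, chr2:167421460-167421759, plus strand: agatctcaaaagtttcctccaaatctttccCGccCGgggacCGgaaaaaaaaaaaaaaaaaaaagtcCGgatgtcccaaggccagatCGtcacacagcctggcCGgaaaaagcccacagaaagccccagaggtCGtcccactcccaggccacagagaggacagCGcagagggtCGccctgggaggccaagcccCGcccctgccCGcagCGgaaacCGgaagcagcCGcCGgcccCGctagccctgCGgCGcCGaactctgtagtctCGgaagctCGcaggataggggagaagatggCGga
The Slc9a9 promoter held 6 CpG dinucleotides and 43.7% GC, where the median of 32851 mouse promoters of the same length is 7 CpG and 52.7% GC. The other promoters were richer: 24 CpG for Slc9a7, 22 for Slc9a8, 20 for Slc9a5 and 27 for Slc9a3r1. At least 73.5% of all promoters held fewer CpG than each of those 4, and 43.6% held fewer than that of Slc9a9. Of 4 motifs searched on both strands, a single motif was found in these 5 windows, so no matches of different motifs overlap. The ETS core GGAAGT stood once in the Slc9a9 promoter, 2 times in that of Slc9a3r1 and in none of the other 3, and it occurs in 23.8% of all promoters. The AP-1 site TGACTCA (5.20% of promoters), the interferon-stimulated response element (GAAA, any 2 bases, GAAA; 3.44%) and TATAAA (13.6%) were in none of the 5 windows.

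Levels are FPKM, fragments scaled to transcript length in kilobases and to the mapped fragments of the library, as deposited. The depths implied by the steps between low values ran from 14.3 to 18.8 M fragments in LPS+PA-BSA libraries and from 13.9 to 21.1 M fragments in control libraries. The libraries departed from each other by the GC content of the transcript. In the eighth of tested genes with the highest GC, the median log2(FPKM + 1) lay -0.23, 0.06 and 0.15 from the group's mean in LPS+PA-BSA 1, 2 and 3, and 0.17, 0.24 and -0.40 from it in control 1, 2 and 3. LPS+PA-BSA 1 and control 3 therefore stood apart as low in GC-rich transcripts, and counts or calls that move much without them are given below. The macrophage marker Adgre1 (F4/80) was at 1417 ± 189 FPKM after LPS+PA-BSA and 1400 ± 134 FPKM in control cells, and Csf1r, the receptor of the macrophage growth factor, at 207 ± 11.6 and 305 ± 8.73 FPKM (SD, n = 3 each), so the defining markers of the labelled cell type were present in both groups. The RNA is from bulk culture, in which fewer cells of a type and less RNA per cell cannot be told apart.

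Slc9a9, the exchanger of late and recycling endosomes, had 0.341, 0.385 and 0.282 FPKM in LPS+PA-BSA libraries, against 25.1, 26.3 and 27.2 FPKM in control libraries. The groups lay far apart, and within each group the 3 libraries were close together. The means were 0.336 ± 0.0518 FPKM after LPS+PA-BSA and 26.2 ± 1.04 FPKM in control cells (SD, n = 3 each), a 77.9-fold lower level, or 1.28% of control. On the log2(FPKM + 1) scale, which understates changes of low values, the difference was -4.35 (SE 0.0781), and the log2 ratio of the mean FPKM was -6.28. Slc9a9 stood above 86.9% of the 11364 tested genes in control cells and above 1.16% of them after LPS+PA-BSA. Genes that did not reach 1 FPKM in 3 libraries are left out of this ranking. Slc9a9 passed that filter only through the controls, so its low place after LPS+PA-BSA follows in part from the filter. Fragment numbers here and below take the longest transcript as the length of the gene. The LPS+PA-BSA values of Slc9a9 rest on an estimated 22, 19 and 17 fragments and the control values on 1838, 1454 and 1305. The treated level is thus measured from few fragments, which counting error alone would spread, but it is above 0 in every library.

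Slc9a7, an exchanger of the trans-Golgi network, had 1.12, 1.21 and 0.618 FPKM after LPS+PA-BSA, against 3.83, 4.31 and 4.35 FPKM in control cells. All 3 LPS+PA-BSA libraries were below all 3 control libraries, and LPS+PA-BSA 3 was the lowest. The means of 0.981 ± 0.317 and 4.16 ± 0.286 FPKM (SD, n = 3 each) make Slc9a7 4.24-fold lower after LPS+PA-BSA (log2 fold change -1.39, SE 0.135). These values rest on an estimated 53, 43 and 26 fragments in LPS+PA-BSA libraries and 203, 172 and 151 in control libraries.

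Slc9a8, an exchanger of the Golgi that also reaches the surface of some epithelial cells, had 3.16, 3.02 and 3.93 FPKM in LPS+PA-BSA libraries, against 3.94, 3.94 and 2.97 FPKM in control libraries. The groups overlapped, and the lowest of the 6 values was that of control 3. The means were 3.37 ± 0.487 FPKM after LPS+PA-BSA and 3.62 ± 0.559 FPKM in control cells (SD, n = 3 each; log2 fold change -0.08, SE 0.129). The sign of this small difference was not fixed: it was 0.08 when each library was scaled to the same median, 0.14 after quantile normalization and 0.25 after a fit of every library on the GC content and length of transcripts had been subtracted (the GC and length trend).

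Slc9a5, mainly a neuronal exchanger, was low throughout, at 0.418, 0.409 and 0.492 FPKM after LPS+PA-BSA and 0.943, 1.02 and 0.516 FPKM in control cells. The groups did not overlap, but control 3 lay next to the treated libraries and far from the other 2 controls. Its means were 0.440 ± 0.0456 FPKM after LPS+PA-BSA and 0.825 ± 0.270 FPKM in control cells (SD, n = 3 each). Slc9a5 did not reach 1 FPKM in 3 libraries and so was the member left out of the fit over all genes. Without that filter its log2 fold change was -0.33 (SE 0.130). The values rest on an estimated 31, 23 and 33 fragments after LPS+PA-BSA and 79, 64 and 28 in control cells.

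Slc9a3r1, the scaffold, had 16.4, 25.3 and 26.0 FPKM in LPS+PA-BSA libraries, against 22.6, 22.4 and 18.9 FPKM in control libraries. The lowest library of each group was the 1 low in GC-rich transcripts. The means were 22.6 ± 5.35 FPKM after LPS+PA-BSA and 21.3 ± 2.07 FPKM in control cells (SD, n = 3 each; log2 fold change 0.06, SE 0.183). Without LPS+PA-BSA 1 and control 3 the log2 fold change was 0.19 (SE 0.0515), and with the GC and length trend removed it was 0.56 (SE 0.115). The plot of single libraries shows this spread beside the wide gap of Slc9a9.

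**Figure D1:**
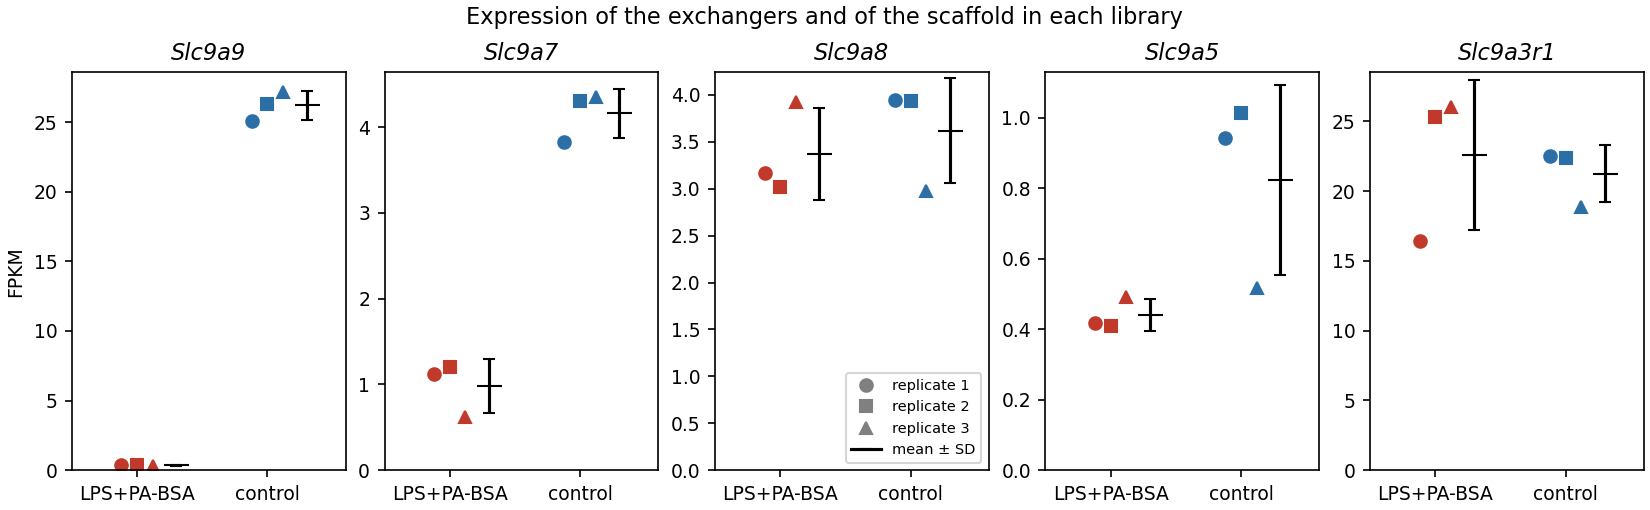
FPKM (y axis, from 0, with a scale for each gene) of the 5 genes in the 3 LPS+PA-BSA libraries (red) and the 3 control libraries (blue), with the mean and SD in black. Slc9a9 is at 0.336 FPKM after LPS+PA-BSA and 26.2 FPKM in control cells, Slc9a7 and Slc9a5 are lower without overlap, and Slc9a8 and Slc9a3r1 overlap.

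In the fit over all 11364 tested genes (limma, Benjamini-Hochberg adjusted p under 0.05), 2 of the 4 tested members, Slc9a9 and Slc9a7, were called lower and 0 higher, where 55.1% of all tested genes were called in either direction and 32.9% lower. Of the 5 members, 3 had groups that did not overlap, all lower after LPS+PA-BSA, against 63.2% of tested genes without overlap in either direction and 36.9% lower without overlap. As the genes were chosen on this comparison, nothing is read from either count.

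The members differed in how far single libraries departed from their group, and those with GC-rich transcripts were low in control 3. In control 3, Slc9a8, Slc9a5 and Slc9a3r1, with 53.9%, 55.7% and 58.5% GC in the longest transcript, lay -0.21, -0.26 and -0.16 from the control mean on the log2(FPKM + 1) scale. Slc9a9 and Slc9a7, with 47.6% and 50.8% GC, were both 0.05 above it there. In LPS+PA-BSA 1, Slc9a3r1 lay -0.41 from its group's mean, and Slc9a7 lay 0.11 above it. Slc9a7 departed most in LPS+PA-BSA 3, at -0.28, where genes of like GC content stood at -0.03 in the median. For Slc9a9 no library departed by more than 0.06 from its group's mean, on a scale that flattens its low values after LPS+PA-BSA (0.282 to 0.385 FPKM). Its log2 fold change was -4.32 without LPS+PA-BSA 1 and control 3. With the trend removed, it was -4.41 for Slc9a9 and -1.37 for Slc9a7.

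**Figure D2:**
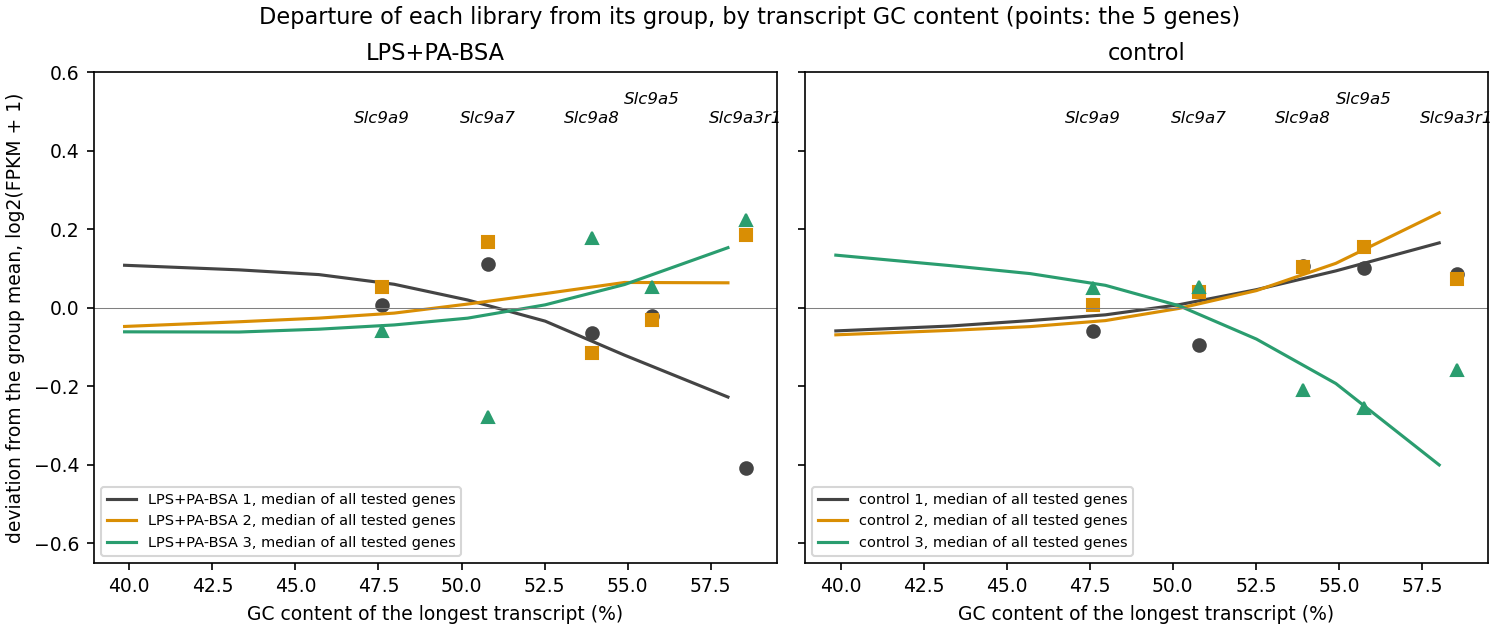
Departure of each library from its group's mean, log2(FPKM + 1) (y axis), by GC content of the longest transcript in percent (x axis), for LPS+PA-BSA (left) and control (right). Lines are medians of all tested genes in 8 groups by GC and points are the 5 genes (circle, square and triangle for replicates 1, 2 and 3); control 3 falls to -0.40 in the GC-richest group, and Slc9a8, Slc9a5 and Slc9a3r1 are below 0 in it.

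Some other genes of the SLC9 family give the setting for Slc9a9. Slc9b2, an exchanger of a separate branch of the family, fell, with 0.847, 0.965 and 0.900 FPKM after LPS+PA-BSA, against 1.72, 1.38 and 1.46 FPKM in control cells (log2 fold change -0.40, SE 0.0850, limma adjusted p = 0.00766). All 3 LPS+PA-BSA libraries were below all 3 control libraries. The call was lost after quantile normalization (-0.18, limma adjusted p = 0.139) and within each of 2 sets of libraries, control 1, control 2 and LPS+PA-BSA 3 (-0.42, limma adjusted p = 0.0543) and the other 3 (-0.37, limma adjusted p = 0.158). Slc9b2 was at 59.6% of its control level after LPS+PA-BSA, where Slc9a9 was at 1.28%. Slc9a2, Slc9a3, Slc9a4, Slc9b1 and Slc9c1, which are exchangers of epithelia, testis or sperm, reached at most 0.224 FPKM in any library.

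Among Slc9a9, Slc9a7, Slc9a8, Slc9a5 and Slc9b2, the order of levels per length differed between the groups. After LPS+PA-BSA, Slc9a8 was the highest of these 5 in all 3 libraries, followed by Slc9a7 and Slc9b2, which overlapped, then Slc9a5 and, lowest in all 3 libraries, Slc9a9. In control cells Slc9a9 was the highest of the 5 in all 3 libraries, followed by Slc9a7 and Slc9a8, which overlapped, and then by Slc9b2 and Slc9a5 without overlap. The Golgi exchangers did not move as a block: Slc9a7 was 4.24-fold lower after LPS+PA-BSA, while Slc9a8 overlapped.

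**Figure D3:**
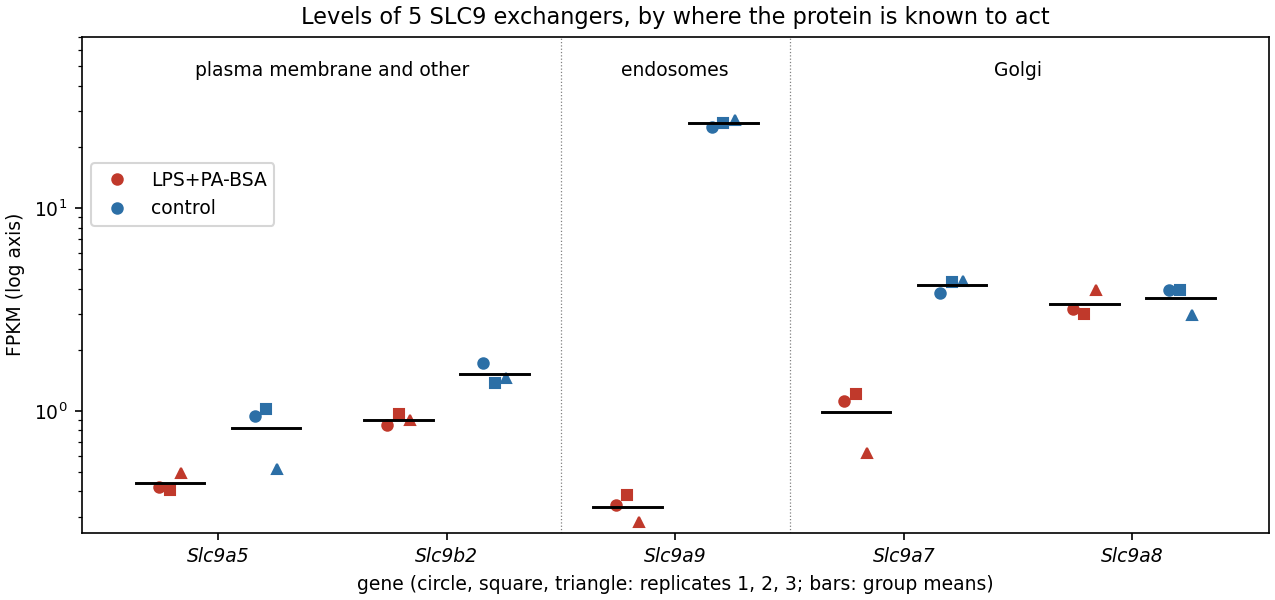
FPKM on a log axis (y) of 5 SLC9 exchangers (x), grouped by where the protein is known to act, in LPS+PA-BSA libraries (red, left of each pair) and control libraries (blue); bars are group means. Slc9a9 is the highest of the 5 in control cells, at 26.2 FPKM, and the lowest after LPS+PA-BSA, at 0.336 FPKM.

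The genes whose 6 values were closest to those of Slc9a9, by Euclidean distance on the log2(FPKM + 1) scale, were Hpgd, Trav13-4-dv7, Slc46a3, Rab3il1 and Ighm. Hpgd, which breaks down prostaglandins, was nearest at a distance of 0.70, with 0.405 ± 0.177 FPKM after LPS+PA-BSA and 20.0 ± 1.66 FPKM in control cells (SD, n = 3 each). Slc46a3, a transporter of the lysosome membrane, was at a distance of 1.13 with 0.574, 0.519 and 0.890 FPKM after LPS+PA-BSA and 18.9, 16.4 and 18.0 FPKM in control cells. Nearest to Slc9a7 were Copz2 (0.28), a coatomer subunit, and Cnksr3 (0.28). Nearest to Slc9a8 were Ino80e (0.14) and Abcb6 (0.16), and nearest to Slc9a3r1 were Phf23 (0.36) and Dbnl (0.38). The distance uses 6 libraries in 2 groups, so it reflects mainly the level in each group.

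Of the 6 tested genes beside the members on the chromosome 3 fell, and the log2 fold changes of the other 3 were also below 0. Over all tested genes 32.9% were called lower, and nothing is read from the count of neighbours. Next to Slc9a9, 131828 bases before its start, 1190002N15Rik was at 3.18 ± 0.121 FPKM after LPS+PA-BSA and 10.9 ± 1.67 FPKM in control cells (SD, n = 3 each; log2 fold change -1.49, limma adjusted p = 8.88e-05), and Chst2, 168847 bases after its end, reached at most 0.121 FPKM in any library. The antisense gene Gm16262, which lies inside Slc9a9, was at 0.00903 ± 0.0156 FPKM after LPS+PA-BSA and 0.170 ± 0.0579 FPKM in control cells. Whether reads were assigned by strand is not known, so reads of Slc9a9 and Gm16262 cannot be told apart. Beside Slc9a7, Rp2 fell (9.65 ± 1.04 FPKM after LPS+PA-BSA and 15.3 ± 1.75 FPKM in control cells, limma adjusted p = 0.00440), and Chst7 was at 0.101 FPKM after LPS+PA-BSA and 0.528 FPKM in control cells. Beside Slc9a5, Fhod1 fell (1.24 ± 0.377 FPKM after LPS+PA-BSA and 3.42 ± 1.48 FPKM in control cells, limma adjusted p = 0.0276), although control 3, at 1.76 FPKM, lay close to LPS+PA-BSA 3, at 1.62 FPKM, and Plekhg4 was at 0.0172 FPKM after LPS+PA-BSA and 0.288 FPKM in control cells. B4galt5 and Spata2, beside Slc9a8, and Nat9, beside Slc9a3r1, had log2 fold changes of -0.40, -0.30 and -0.23 that did not pass the test (limma adjusted p = 0.163, 0.211 and 0.114). Rab37, on the other side of Slc9a3r1, had 0.0793, 0.0806 and 0.141 FPKM after LPS+PA-BSA and 0.182, 0.112 and 0.0873 FPKM in control cells, and the groups overlapped.

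Genes that work with the exchangers moved in both directions. Of 6 tested partners and scaffolds 2 rose and 2 fell, and without LPS+PA-BSA 1 and control 3 the falls numbered 4. Over all tested genes 22.2% rose and 32.9% fell, and nothing is read from the counts of this and the following lists. Ezr, which encodes ezrin, the partner of Slc9a3r1 at the cell cortex, rose to 25.9 ± 5.87 FPKM after LPS+PA-BSA, against 9.24 ± 1.70 FPKM in control cells (log2 fold change 1.38, limma adjusted p = 0.00138), and the related Rdx (radixin) fell to 15.1 ± 0.684 FPKM, against 23.2 ± 0.463 FPKM (log2 fold change -0.59, limma adjusted p = 0.000653). Rack1, a ribosomal scaffold, fell to 47.3 ± 10.4 FPKM after LPS+PA-BSA, against 117 ± 38.6 FPKM (log2 fold change -1.25, limma adjusted p = 0.0104). Other regulators of pH at the plasma membrane rose in 4 and fell in 3 of 10 tested genes, and in 5 and 4 without LPS+PA-BSA 1 and control 3. The carbonic anhydrase genes Car13 (log2 fold change 2.32, limma adjusted p = 7.45e-06) and Car2 (2.14, limma adjusted p = 3.34e-05) rose. Car2 had 4.36 ± 0.898 FPKM after LPS+PA-BSA and 0.204 ± 0.0325 FPKM in control cells. Slc4a2, a chloride-bicarbonate exchanger, fell (-1.15, limma adjusted p = 0.0237), but not past the threshold if LPS+PA-BSA 1, control 1 or control 2 was dropped (log2 fold changes -0.98, -0.99 and -0.94). Without LPS+PA-BSA 1 and control 3 together, Slc4a2 was at -1.36 (limma adjusted p = 0.000167).

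In endosomes and lysosomes, where Slc9a9 works against the proton pump, 3 of 26 tested genes of acidification rose and 7 fell. Over all tested genes 22.2% rose and 32.9% fell. The median log2 fold change of the list was -0.14 beside -0.11 for all tested genes. Under median scaling, which moved the median of all tested genes to 0.05, 7 rose and 3 fell, so the balance of the list is not fixed. Without control 3 the falls numbered 11, and without LPS+PA-BSA 1 and control 3 there were 5 rises and 12 falls. The log2 fold changes largest in size among its calls were those of Slc26a11, an anion transporter of the lysosome (-2.34, limma adjusted p = 0.000269), Atp6v0a1, a membrane subunit of the proton pump (-1.95, limma adjusted p = 4.10e-05), and Clcn7, the chloride-proton exchanger of lysosomes (1.06, limma adjusted p = 7.42e-05). Atp6v0a1 was at 15.5 ± 1.54 FPKM after LPS+PA-BSA and 63.1 ± 8.55 FPKM in control cells (SD, n = 3 each). No tested gene of the list had a log2 fold change as low as the -4.35 of Slc9a9, which drew attention because of its low level in this comparison. Of 24 tested genes of endosome identity and recycling 4 rose and 5 fell (median 0.04; 9 rose and 5 fell under median scaling, and 8 rose without LPS+PA-BSA 1 and control 3), led by Tfrc, the transferrin receptor that cycles through recycling endosomes (-1.79, limma adjusted p = 2.44e-05), and the recycling factors Rab11fip1 (1.78, limma adjusted p = 1.98e-05) and Rab11fip5 (-1.70, limma adjusted p = 0.000704). Of 22 genes of the Golgi, where Slc9a7 and Slc9a8 act, 4 rose and 6 fell (median 0.03, and 7 and 4 under median scaling). Sort1, the sorting receptor sortilin, fell (-2.01, limma adjusted p = 1.03e-05), M6pr, a mannose 6-phosphate receptor, rose (1.49, limma adjusted p = 1.78e-05), and the protease gene Furin fell (-1.14, limma adjusted p = 0.0424), which missed the threshold whenever LPS+PA-BSA 1, 2 or 3 or control 1 or 2 was dropped (-1.29 to -0.87). Without control 3 the log2 fold change of Furin was -1.56 (limma adjusted p = 0.00143), and without LPS+PA-BSA 1 and control 3 it was -1.34 (limma adjusted p = 0.000592). Removing the GC and length trend lost the call of Furin (-0.68, limma adjusted p = 0.0781), as did quantile normalization (-0.98, limma adjusted p = 0.0533). So did leaving out the filter (limma adjusted p = 0.110) and adding a term for replicate number (limma adjusted p = 0.0727). Within control 3, LPS+PA-BSA 1 and LPS+PA-BSA 2, Furin was at -0.45. The Golgi list had 2 rises when LPS+PA-BSA 2 or 3 or control 1 or 2 was dropped, and 2 or 3 falls when any LPS+PA-BSA library or control 1 or 2 was dropped. Without LPS+PA-BSA 1 and control 3 together it had 5 rises and 7 falls.

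**Figure D4:**
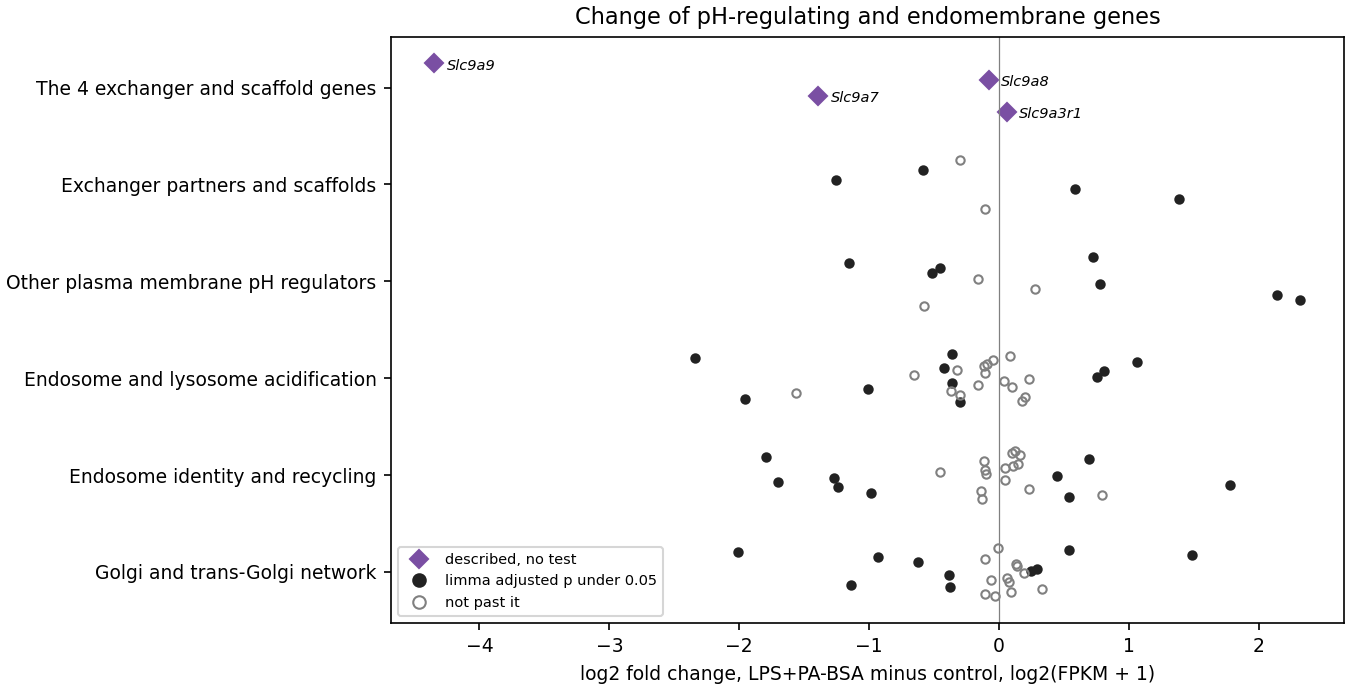
Log2 fold change, LPS+PA-BSA minus control, on the log2(FPKM + 1) scale (x axis) for the tested genes of each list (y axis). Purple diamonds are the 4 tested exchanger and scaffold genes, filled circles genes past the limma threshold and open circles the others. Slc9a9, at -4.35, lies left of every plotted gene of the other lists, but it drew attention because of its low level in this comparison.

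Markers of stromal cells were lower after LPS+PA-BSA, as Slc9a9 was. All 6 of 6 measured stromal markers fell, where 32.9% of all tested genes were called lower. Among them was the collagen gene Col1a1 (5.26 ± 1.13 FPKM after LPS+PA-BSA and 55.3 ± 20.7 FPKM in control cells, SD, n = 3 each; limma adjusted p = 0.000279). Their summed FPKM was 16.3 to 18.7 in LPS+PA-BSA libraries and 88.2 to 174 in control libraries. Control 3 had the lowest sum of the controls, while Slc9a9 was highest there, at 27.2 FPKM. Col1a1 was at 31.6 FPKM in control 3, against 64.8 and 69.5 FPKM in control 1 and 2. Col1a2 (20.7 FPKM, against 38.2 and 44.3 FPKM) and Col3a1 (22.2 FPKM, against 42.1 and 43.7 FPKM) were also lower there. So was Pdgfrb, at 7.56 FPKM, against 10.5 and 10.8 FPKM. Pdgfra was higher in control 3, at 2.21 FPKM, against 1.78 and 1.51 FPKM, and Cxcl12, at 3.95 FPKM, lay between control 1 and 2. Col1a1, Col1a2, Col3a1 and Pdgfrb have 58.9%, 55.7%, 52.5% and 54.9% GC in the longest transcript, and control 3 was low in GC-rich transcripts. Pdgfra and Cxcl12 have 48.1% and 50.7% GC, and Slc9a9 has 47.6%. The cause of the lower sum was not tested, and GC content and fewer stromal cells cannot be told apart in it. Whether Slc9a9 follows stromal cells within the controls is therefore not shown by these values. Summed markers of B cells were 1.15 to 1.24 FPKM after LPS+PA-BSA and 8.54 to 10.3 FPKM in control cells, nearly all from Cd79b, and those of T and NK cells 1.03 to 1.37 and 6.47 to 7.42 FPKM, nearly all from Cd4. Cd79a, Ms4a1, Cd3d, Cd3g and Cd8a reached at most 0.128 FPKM in any library. Of the genes nearest to Slc9a9, 2 are lymphocyte receptor genes outside these lists. Ighm, the heavy chain of immunoglobulin M, was at 0.907 ± 0.273 FPKM after LPS+PA-BSA and 39.1 ± 2.31 FPKM in control cells, and Trav13-4-dv7, a T cell receptor segment, at 0.566 ± 0.116 FPKM after LPS+PA-BSA and 18.6 ± 0.624 FPKM in control cells (SD, n = 3 each). Markers of neutrophils (0.351 to 1.71 and 0.288 to 8.82 FPKM), dendritic cells (0.373 to 0.564 and 0.315 to 0.424 FPKM), mast cells and basophils (1.02 to 2.34 and 1.69 to 1.96 FPKM) and erythroid cells (0.0659 to 6.08 and 0 to 3.28 FPKM) overlapped between LPS+PA-BSA and control. Some differed within a group. The neutrophil gene Ngp was at 5.92, 6.03 and 0 FPKM in control 1, 2 and 3. The erythroid gene Hbb-bs was at 3.95, 2.34 and 0.0566 FPKM in LPS+PA-BSA 1, 2 and 3, and at 0, 0.327 and 1.70 FPKM in control 1, 2 and 3. Of 8 macrophage markers 1 rose and 5 fell, with summed FPKM of 12059 to 14306 after LPS+PA-BSA and 18878 to 21927 in control cells. The part of these cell types in the values of the exchangers was not tested.

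The difference of Slc9a9 was large under every setting tried: its log2 fold change ran from -5.92 with a pseudocount of 0.1 to -4.23 under median scaling. That of Slc9a7 ran from -2.02 with the same pseudocount to -1.18 after quantile normalization. For Slc9a8 and Slc9a3r1 the values lay on both sides of 0.

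**Figure D5:**
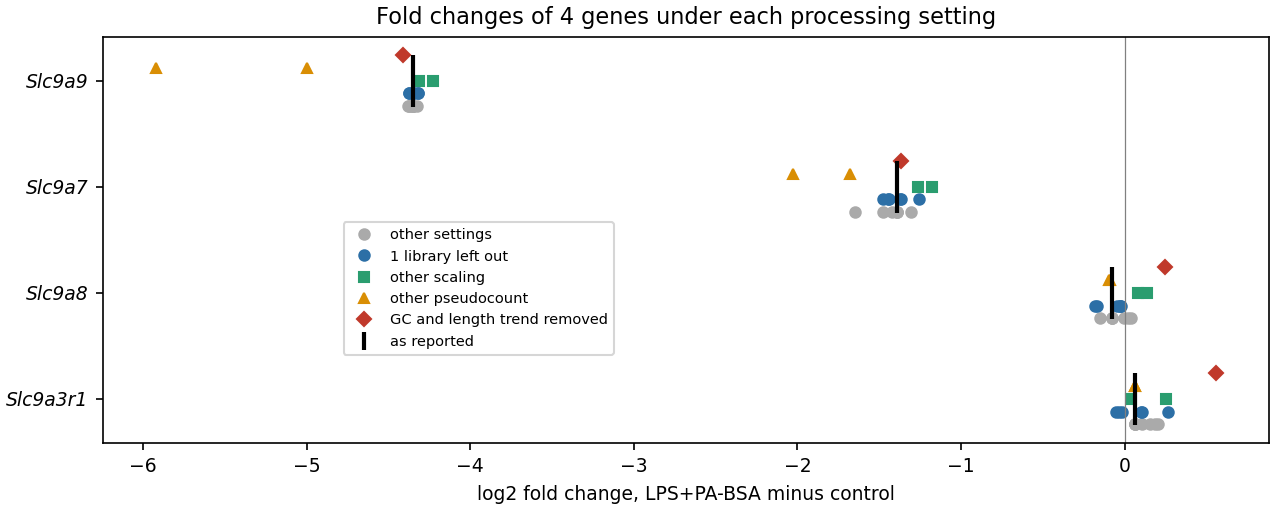
Log2 fold change, LPS+PA-BSA minus control (x axis), of the 4 tested genes (y axis) under each processing setting; black bars are the values reported. Slc9a9 stays between -5.92 and -4.23 and Slc9a7 between -2.02 and -1.18, while Slc9a8 and Slc9a3r1 lie around 0, with Slc9a3r1 at 0.56 when the GC and length trend is removed.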

How the data were processed

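The authors deposited 1 table of 29957 genes with an FPKM value per library, so replicates were not pooled. Per the labels' protocols, poly(A) RNA was selected, dUTP labelled the second cDNA strand, and read pairs were sequenced, so RNA without a tail is not measured and PCR can favour fragments by GC content. The build mm10 and the tools StringTie 2.1.6, HISAT2 2.2.1, cutadapt 1.9, edgeR and DESeq2 stand in the submitters' processing notes, with no role or order. Per the file headers, the authors also gave a q-value, a p-value, a log2 fold change and a fold (ratio), which were not used. Groups and replicate numbers come from the sample titles, and every column of library values belonged to a sample.

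The 11364 genes that reached 1 FPKM in 3 or more of the 6 libraries were tested on log2(FPKM + 1) with limma 3.58.1 in R 4.3.3 (variance trend, two-sided, Benjamini-Hochberg adjusted over all tested genes, threshold 0.05), a fit checked on simulated data. Depth was read from the steps of FPKM in genes with 1 transcript (tolerance 0.5%); it and the fragment estimates cover counting error only. Positions, lengths and GC content come from GENCODE M21 (mm10), which held 29871 of the gene IDs, and promoters from RefSeq (GRCm38.p6), which matched all 5 members. Other work used Python 3.11.15 with pandas 2.3.3, numpy 2.4.6 and matplotlib 3.10.9.

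The members, the gene lists and the 2 sets of libraries used as an alternative were chosen with earlier results of these data known. Named from each list were the 3 called genes with the largest absolute log2 fold change, the SLC9 exchangers, the 5 genes nearest to Slc9a9 and the 2 nearest to each other tested member (leaving out Gm and Rik symbols), and the nearest protein-coding gene on each side. Markers singled out in the text were chosen after their values were seen. The labels name no animal or culture shared by same-numbered libraries, so these were not treated as pairs in the main fit. Slc4a10 and 6 cell type markers were not analysed here. Some genes that the rule names are not reported here.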

Additional observations from a re-analysis of the deposited data

How the results depend on the processing

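Over all tested genes, 2523 were higher and 3736 lower after LPS+PA-BSA. These counts stayed within 1.5 times under the alternatives tried, except for 2009 lower with a filter at 5 FPKM, which tests fewer genes, and 1197 higher and 1797 lower within control 3, LPS+PA-BSA 1 and LPS+PA-BSA 2, which uses fewer libraries. Leaving out 1 library at a time gave 2007 to 2778 higher and 2765 to 4273 lower. Under median scaling 3349 were higher and 2723 lower, and the median log2 fold change of all tested genes moved to 0.05, against -0.11; after quantile normalization the counts were 3014 and 2922. The log2 fold change of Slc9a9 was -5.92 and -5.00 with pseudocounts of 0.1 and 0.5, -4.23 under median scaling and -4.41 with the GC and length trend removed, and it ran from -4.38 to -4.32 with 1 library left out. It was -4.38 within control 1, control 2 and LPS+PA-BSA 3 and -4.37 within the other 3 libraries.

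Deviations of same-numbered libraries correlated at -0.47, 0.09 and -0.59. The libraries that departed by GC content, LPS+PA-BSA 1 and control 3, carry different numbers. These values therefore cannot show whether same-numbered libraries share an animal or culture. With the replicate block, 1918 genes were higher and 2820 lower, and Slc9a9 was at -4.35. The cause of these changes was not tested. In an alternative chosen after seeing the data, without control 3 and LPS+PA-BSA 1, 2949 genes were higher and 4558 lower. Depth limits what can be said of Slc9a9 after treatment and of Slc9a5, whose values rest on few fragments.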
